A study of Homo sapiens with 2 samples.

Results

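Accessible chromatin in and around 5 genes for developmental transcriptional repressors, BCL11A, BCL11B, RUNX1T1, ZEB1 and ZEB2, was described in H1 human embryonic stem cells. A region belonged to a gene when its strongest summit lay in the GENCODE gene body or within 200 kb of it, and 221 of the 160327 regions in the peak list met this rule. The genes were chosen by their role as repressors and because earlier results from the same list had shown many distal regions near them, so the number of regions per gene is a description and was not tested. Of the 221 regions, 201 were distal, meaning that the summit lay more than 1000 bp from the outermost 5′ end of any annotated gene. The label of many distal regions did not hold for ZEB1, which had 11, against 57 at BCL11A, 53 at ZEB2, 45 at RUNX1T1 and 35 at BCL11B.

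Chromatin was profiled by ATAC-seq, in which a transposase cuts exposed DNA and attaches sequencing adapters to it, in 2 samples of H1, an established pluripotent line, recovered from frozen stocks and cleared of free DNA before tagmentation. The samples form 1 group with no treatment or genotype contrast, and the stated purpose of the map was to train ChromBPNet, a neural network that predicts accessibility from sequence and corrects for the sequence preference of the transposase. Both samples share 1 peak list with no value per sample, so no value below has a replicate spread, no replicate could be compared with the other, and every comparison is between regions or genes of 1 list. The strength of a region is given as its fold, the authors' own enrichment over a background about which nothing is stated, and sequencing depth was not analysed here. In such a bulk list, a site open in few cells cannot be told apart from a site weakly open in many. As a check of the label, 12 of 12 markers of pluripotent cells had a region within 1000 bp of an annotated transcript start (fold 4.69 to 17.5), and so did 0 of 5 blood markers, 4 of 5 fibroblast markers (highest fold 8.58), 2 of 3 liver markers (6.02) and 1 of 2 muscle markers (4.20), whose part in the results was not tested. The share of all genes by this rule was not computed. By the outermost 5′ end, 71.5% of all protein-coding genes had a region. The markers with one there were 11 of 12 pluripotent, 0 of 5 blood, 3 of 5 fibroblast, 1 of 3 liver and 1 of 2 muscle. These counts are small and do not settle the label.

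The 5 proteins repress transcription by bringing corepressors and histone deacetylases to DNA. BCL11A and BCL11B are zinc finger proteins that recruit the NuRD complex: BCL11A silences fetal globin genes in red cell precursors, and BCL11B is needed for T cell commitment, and both act in developing neurons. RUNX1T1, also called ETO, is a corepressor without sequence-specific DNA binding of its own, known from its fusion to RUNX1 in acute myeloid leukaemia. ZEB1 and ZEB2 bind E-boxes through clusters of zinc fingers at both ends of the protein, repress epithelial genes such as CDH1 and drive epithelial to mesenchymal transition, and ZEB2 also acts in neural differentiation. Human embryonic stem cells have an epithelial character, and the miR-200 microRNAs, which target ZEB1 and ZEB2 transcripts, are known to favour it.

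The windows below, centred on summits, show what the strongest distal regions of these genes look like at base level. Each runs 50 bp to either side of the summit on the + strand of GRCh38, and the stretches in capitals are matches to strings from a set of 22 short consensus strings for transcription factors. The windows are the strongest distal region of BCL11A at chr2:60453409-60453509 (fold 15.0), the strongest BCL11A region with the octamer at chr2:60520649-60520749 (11.8), and the strongest regions of BCL11B at chr14:99300338-99300438 (9.91), ZEB1 at chr10:31468392-31468492 (15.9) and ZEB2 at chr2:144649221-144649321 (16.5). The capitals are an X box (GTTGCCNNG) and a TFAP2 string (GCCNNNGGC) in the first BCL11A window and the octamer ATGCAAAT on the opposite strand in the second BCL11A window and in ZEB2. The second BCL11A window also holds the RUNX string (TGTGGT), left in lower case. In the ZEB1 window the capitals are a ZIC string (CAGCAGG) and an E2 box (CAGGTG) that overlap by 4 bases on the opposite strand.
BCL11A strongest: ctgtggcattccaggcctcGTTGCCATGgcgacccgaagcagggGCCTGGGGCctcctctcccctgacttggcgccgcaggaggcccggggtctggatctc
BCL11A octamer: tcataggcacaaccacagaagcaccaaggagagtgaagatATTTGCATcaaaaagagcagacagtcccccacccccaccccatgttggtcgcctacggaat
BCL11B strongest: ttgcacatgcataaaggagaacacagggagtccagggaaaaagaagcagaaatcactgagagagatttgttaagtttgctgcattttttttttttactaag
ZEB1 strongest: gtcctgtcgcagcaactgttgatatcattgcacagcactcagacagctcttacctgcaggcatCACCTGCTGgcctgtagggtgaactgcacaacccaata
ZEB2 strongest: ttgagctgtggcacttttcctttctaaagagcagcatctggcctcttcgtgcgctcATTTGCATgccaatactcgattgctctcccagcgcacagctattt
The strongest regions of ZEB2 and of the octamer search coincided, and the BCL11B window held 0 of the 22 strings.

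The genes' own starts were open at very different strength. BCL11A (ENSG00000119866.22, minus strand, chromosome 2, 60450520 to 60554467) and BCL11B (ENSG00000127152.18, minus strand, chromosome 14, 99169287 to 99272197) each had a narrow and weak region there. The summit of the BCL11A region lay 63 bp upstream of the start of the Ensembl canonical transcript, in a region of 305 bp with a fold of 3.52. The BCL11B region was 293 bp wide with a fold of 2.00 and a summit 92 bp upstream, the weaker of the pair. Stronger regions lay beyond 1000 bp of both starts. At BCL11B a region of 750 bp with a fold of 7.26 lay 2649 bp upstream. At BCL11A a region of 740 bp with a fold of 5.19 lay 2335 bp upstream. Another, of 1069 bp with a fold of 4.44, lay 3155 bp inside BCL11A, near starts of 3 protein-coding transcripts. Across 20007 protein-coding genes the median fold at the canonical start was 7.71, counting genes without a region as 0. The ratio of observed to expected CpG was 0.873 at the BCL11A start and 0.745 at the BCL11B start, in deciles of 2001 genes each where 97.1% and 96.4% of genes had a region. Of the genes in BCL11A's decile 93.7% had a higher fold than BCL11A, and of those in BCL11B's decile 96.3% had a higher fold than BCL11B.

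The ZEB pair differed from each other at their starts. ZEB1 (ENSG00000148516.23, plus strand, chromosome 10, 31318495 to 31529814) had a region of 1140 bp with 5 summits at the canonical start, at 31318727 to 31319866, with a fold of 7.77 and the strongest summit 282 bp inside the gene. Regions of fold 2.33 and 4.17 flanked it, and 15 of the 21 distinct annotated starts of ZEB1 had a region within 1000 bp. ZEB2 (ENSG00000169554.23, minus strand, chromosome 2, 144364364 to 144521057) had no region within 1000 bp of its outermost 5′ end or its canonical start. The nearest summit to the canonical start lay 2937 bp upstream, in a region of 400 bp with a fold of 2.46. Only 9 of the 46 distinct ZEB2 starts had a region. The strongest such region had a fold of 13.9 at 88506 bp inside the gene, where 3 protein-coding transcripts start. Nearer the 5′ end, regions at 3581 bp (fold 2.76) and 4027 bp (2.45) inside the gene also lay by annotated starts. ZEB1 and ZEB2 also differed in the ratio of observed to expected CpG at the canonical start, 0.749 and 0.525, and 96.4% and 48.6% of genes in their deciles had a region there.

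RUNX1T1 (ENSG00000079102.17, minus strand, chromosome 8, 91954972 to 92103286) had the strongest promoter region of the 5 genes by the outermost 5′ end. A region of 1022 bp at 92103003 to 92104024 had a fold of 9.45, and a broader one of 1721 bp with 5 summits at 92094969 to 92096689 covered the canonical start with a fold of 8.11. The broader region counts among the 201 distal regions, since the rule on distal regions uses the outermost 5′ end only. Of 41 distinct RUNX1T1 starts, 34 had a region within 1000 bp, and 22.7% of the 2001 genes in its CpG decile had a higher fold at the canonical start, in a decile where 48.6% had a region. With the outermost 5′ end as the start, 4 of the 5 genes had a region (BCL11A 3.52, BCL11B 2.00, RUNX1T1 9.45 and ZEB1 2.33), against 71.5% of all protein-coding genes with a median fold of 7.18. Such a share over so few genes cannot be read against the whole.

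The 201 distal regions were spread over gene bodies and flanks, with 74 in the bodies, 70 upstream and 57 downstream. Per 100 kb, the body of BCL11A held 19.2 distal regions, that of RUNX1T1 13.5, that of ZEB2 12.1, that of BCL11B 9.72 and that of ZEB1 2.37, against 5.36 over the bodies of all protein-coding genes and 4.74 over the sequenced genome. Upstream of the genes the density was 10.5 at ZEB2, 9.00 at BCL11B, 7.50 at BCL11A and at RUNX1T1 and 0.500 at ZEB1. Downstream it was 11.0 at BCL11A, 6.50 at ZEB2, 5.00 at RUNX1T1, 3.50 at BCL11B and 2.50 at ZEB1. By the density over the body and both flanks together, BCL11A ranked 19 among 20007 protein-coding genes (11.3 per 100 kb), ZEB2 161 (9.52), RUNX1T1 822 (8.21), BCL11B 2523 (6.96) and ZEB1 18467 (1.80), with a median gene at 4.68. These ranks describe what the genes were chosen on.

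**Figure D1:**
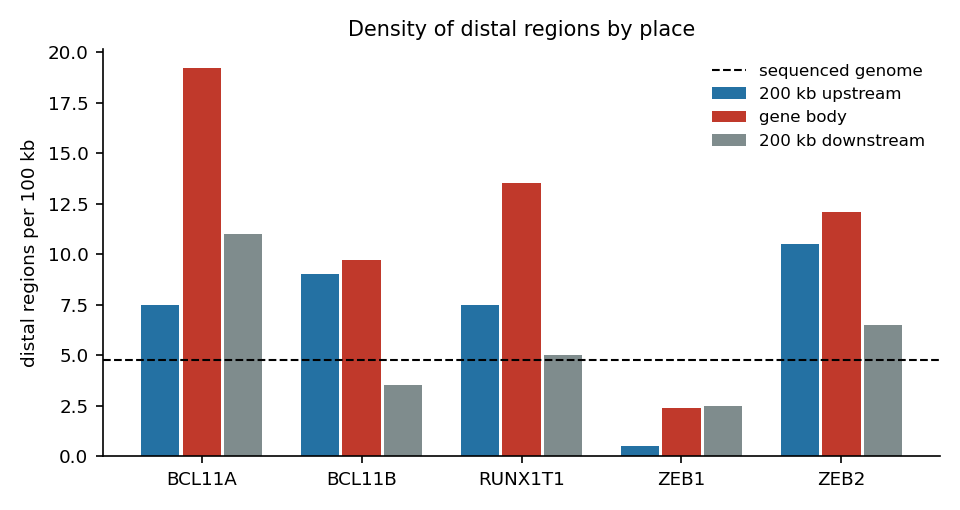
Distal regions per 100 kb (vertical axis) in the 200 kb upstream, the body and the 200 kb downstream of each gene. The dashed line is the sequenced genome. The body of BCL11A stood highest at 19.2 and ZEB1 lay below the genome value of 4.74 in all 3 places.

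Within the bodies, 1 long intron held most regions of 3 genes. Counted on the canonical transcript, intron 2 of BCL11A (77.1 kb) held 15 of the 20 distal regions in the body. Intron 2 of RUNX1T1 (77.7 kb) held 14 of 20, and intron 2 of ZEB2 (87.3 kb) held 14 of 19. The counts alone do not show a concentration, since a long intron covers much of the body. Per 100 kb, intron 2 of BCL11A held 19.4 distal regions, close to the 19.2 of the whole body. The density in intron 2 was above the 13.5 of the whole body at RUNX1T1 and the 12.1 at ZEB2. BCL11B spread its body regions over introns 1, 2 and 3, with 2, 3 and 4 regions, and 1 in its last exon. ZEB1 had the longest first intron, 141.7 kb, with 2 regions in it, 2 in intron 2 and 1 in intron 5. Over the 5 genes, 18 distal regions (8.96%, interval 5.39% to 13.8%) lay in exons of any annotated gene, 104 (51.7%, 44.6% to 58.8%) in introns and 79 (39.3%, 32.5% to 46.4%) between genes. Among all distal regions the shares were 6.58%, 58.7% and 34.7%, each within the interval of the 5 genes. Intervals here and below are exact binomial at 95% (Clopper-Pearson) for shares and from order statistics for medians, and they cover counting error only.

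The spacing of distal regions, which follows from their number in the window, was widest at ZEB1. Neighbouring distal regions lay a median of 6.17 kb apart at BCL11A, 6.27 kb at RUNX1T1, 6.42 kb at ZEB2, 11.1 kb at BCL11B and 39.2 kb at ZEB1, against 12.0 kb over all distal regions. The widest gap between distal regions of ZEB1 was 217.0 kb, from 185089 bp upstream of the canonical start to 31862 bp inside the gene, and the widest elsewhere was 65.6 kb at RUNX1T1. Runs of distal regions less than 5 kb apart reached 7 regions at RUNX1T1, 5 at BCL11A and at BCL11B, 3 at ZEB2 and 1 at ZEB1. At the limit of the window, the last regions inside lay between 134.5 and 199.2 kb from the gene and the first outside began at 201.2 kb. Folds differed across the limit in either direction. Upstream of BCL11A they were 9.99 inside and 16.4 outside, downstream of ZEB2 3.00 and 11.5, and downstream of ZEB1 10.9 and 4.21.

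**Figure D2:**
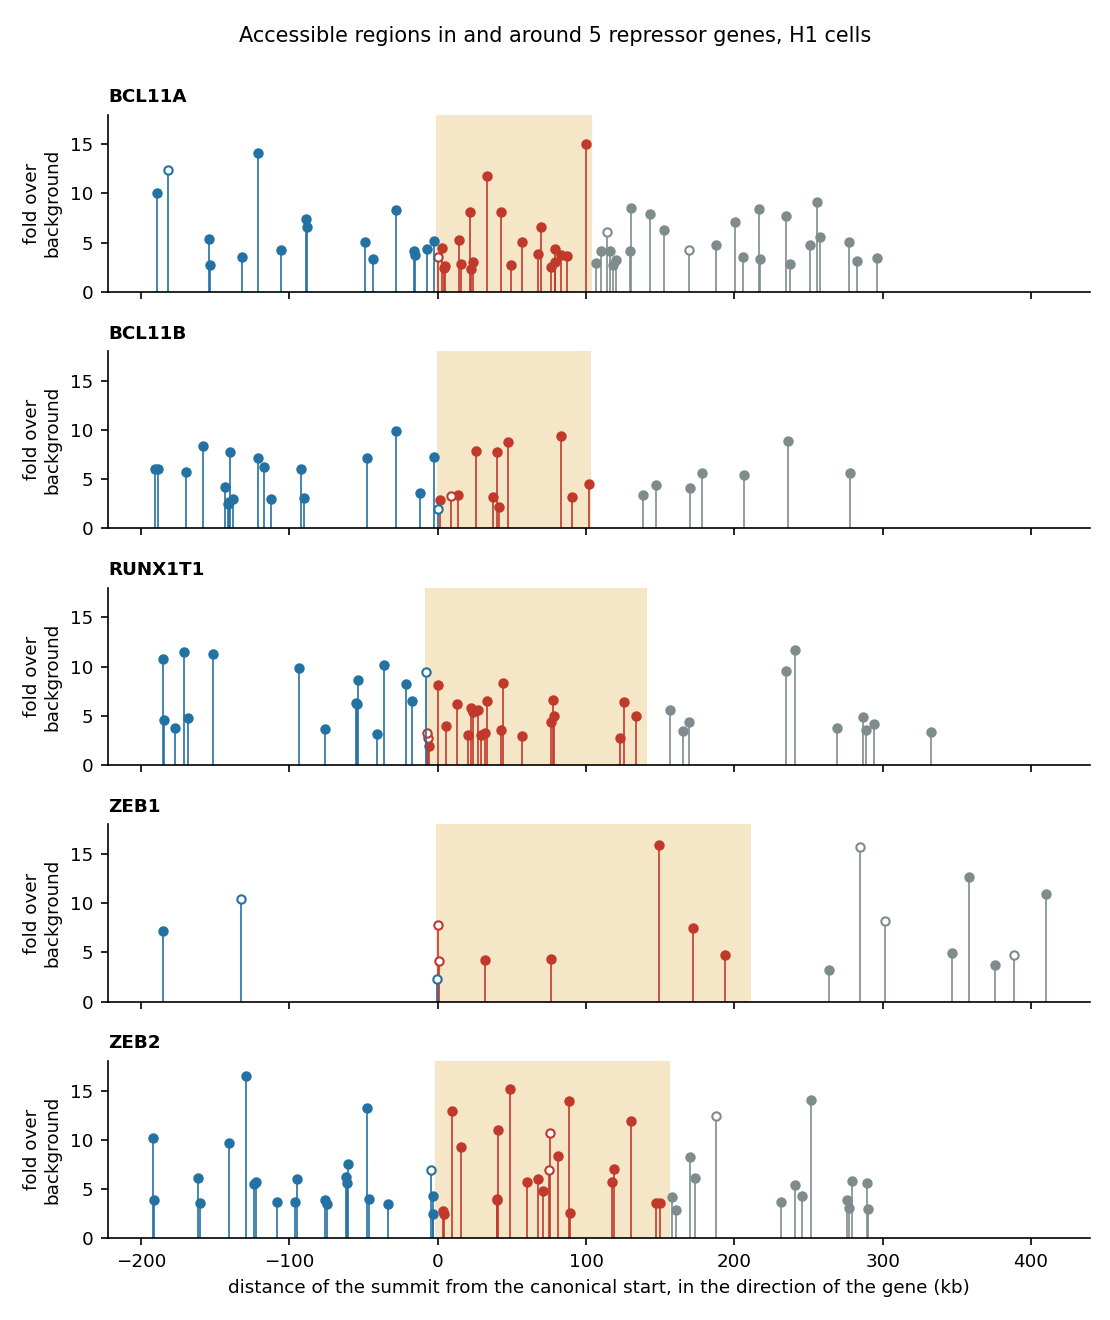
Every region of the 5 genes by its distance from the canonical start in kb (horizontal axis, transcription to the right) and its fold (vertical axis), 1 panel per gene, with the gene body shaded and regions upstream in blue, in the body in red and downstream in grey. Open circles are regions within 1000 bp of a gene's 5′ end. The gap of 217.0 kb between distal regions of ZEB1 holds 4 open circles and no filled one, and the widest such gap at RUNX1T1 is 65.6 kb.

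By strength the distal regions were close to those elsewhere in the list. Their fold ran from 1.98 to 16.5 with a median of 4.90 (interval 4.37 to 5.55) over the 5 genes, against 1.61 to 52.3 with a median of 5.20 (5.17 to 5.22) in the other 139149 distal regions. The medians were 4.37 (3.76 to 5.19) at BCL11A, 5.65 (3.62 to 6.20) at BCL11B, 4.99 (4.15 to 6.25) at RUNX1T1, 4.90 (3.73 to 12.7) at ZEB1 and 5.55 (3.92 to 6.00) at ZEB2. The upper end of the BCL11A interval lay just under 5.20, and the intervals of the other 4 genes held it. A fold over 10 was reached by 20 of the 201 regions (9.95%, 6.18% to 14.9%), against 14.2% of all distal regions, a share within the interval. Of these 20, 9 belonged to ZEB2, 5 to RUNX1T1, 3 to BCL11A, 3 to ZEB1 and 0 of 35 to BCL11B, with an interval of 0% to 10.0%; the limit set at 3 counts of the total would be 8.57%.

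Width and summit number were close to the rest of the list. The median width was 437 bp (400 to 472), against 423 bp in other distal regions, and it was 445 bp at BCL11A, 449 bp at BCL11B, 424 bp at RUNX1T1, 621 bp at ZEB1 and 419 bp at ZEB2. More than 1 summit was found in 25.9% of the regions (20.0% to 32.5%), against 25.6% of all distal regions. Wider regions had higher folds, with Spearman's rho of 0.426 across the 201 regions and 0.463 across the other distal regions, a description over regions of 1 list. Median folds were 4.59 (3.84 to 5.67) in the bodies, 5.75 (4.37 to 6.22) upstream and 4.42 (4.13 to 5.53) downstream, with intervals that overlap. A share of 91.0% of the genes' regions was distal (86.4% to 94.4%), against 86.9% of all regions, and at ZEB1 it was 61.1% (35.7% to 82.7%).

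**Figure D3:**
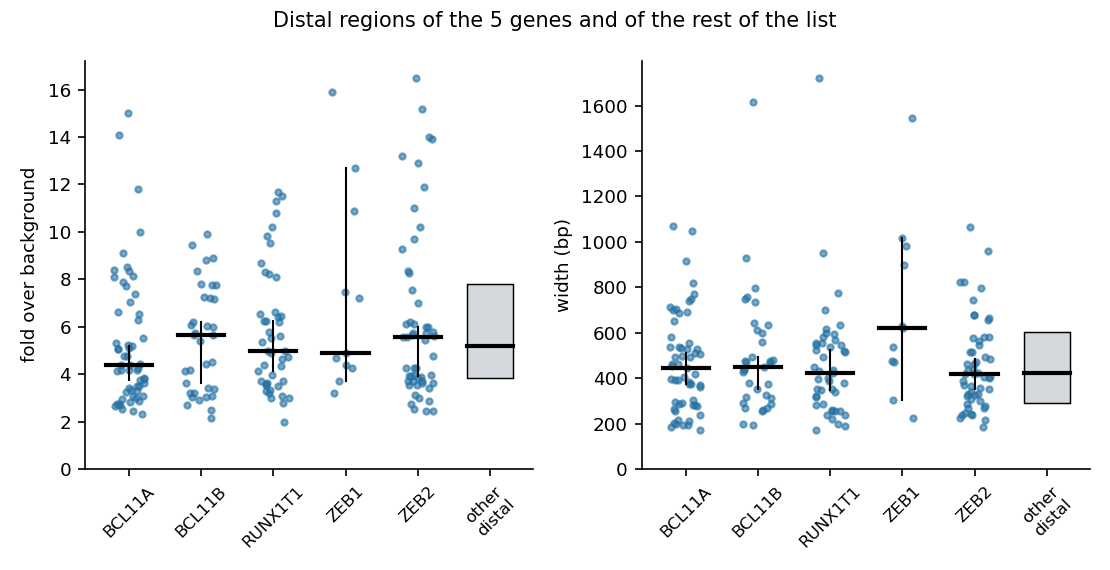
Fold (left) and width in bp (right) of the distal regions of each gene and of the other distal regions of the list. Points are single regions, thick lines medians, thin lines the 95% interval of a median, and the grey box the quartiles of the other distal regions. The gene medians lie between 4.37 and 5.65 for fold and between 419 and 621 bp for width, around the 5.20 and 423 bp of other distal regions.

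In base composition BCL11B and ZEB2 lay on opposite sides of the list, with intervals that did not overlap. The 101 bp around the summits had a median G+C content of 59.4% (55.4% to 63.4%) at BCL11B and 45.5% (44.6% to 48.5%) at ZEB2, against 50.5% in other distal regions, and 52.5% at BCL11A, 48.5% at RUNX1T1 and 48.5% at ZEB1. The sequence of the whole windows, body and flanks, had 47.0% G+C at BCL11B, 44.0% at BCL11A, 39.4% at ZEB1, 38.1% at RUNX1T1 and 37.8% at ZEB2, against 40.9% in the sequenced genome. Over the 5 genes together the median at the summits was 50.5%, equal to that of the other distal regions.

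BCL11A had strong distal regions on both sides of its start. The region of fold 15.0 at 60453231 to 60454146 on chromosome 2, whose window above holds the X box, lay 100195 bp downstream of the canonical start, inside the gene body but past the end of the canonical transcript, and 1 non-coding transcript starts within 1000 bp of it. A region of 14.1 with 3 summits lay 121096 bp upstream at 60674480 to 60675527, and the octamer region of 11.8 lay in intron 2. The next were 9.99 at 188999 bp upstream and 9.11 at 255775 bp downstream. Of the 57 distal regions, 51 had BCL11A as the nearest protein-coding 5′ end, and 12 lay within MIR4432HG, a long non-coding RNA gene downstream, with folds from 2.70 to 8.52.

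In erythroid cells BCL11A is controlled by an intronic enhancer with hypersensitive sites about 55, 58 and 62 kb downstream of the start. In H1 the summit nearest to the first pair of positions lay 56.5 kb downstream, at 60497004 to 60497696, in intron 2, with a fold of 5.09 and a width of 693 bp. It lay 1.49 kb past the 55 kb position and 1.51 kb short of the 58 kb position. Since these positions are approximate, the distances cannot show whether the region overlaps either site. Only the stronger of the region's 2 summits was measured. The summit nearest to the 62 kb position lay 67.4 kb downstream with a fold of 3.82. None of the 22 strings was found within 50 bp of the summit at 56.5 kb, the GATA string among them.

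BCL11B had no distal region over a fold of 10. Its strongest, 9.91, lay 28191 bp upstream at 99300105 to 99300704 on chromosome 14, followed by 9.43 at 83385 bp inside the gene in intron 3, 8.91 at 236069 bp downstream, 8.81 at 47541 bp in intron 3 and 8.36 at 158480 bp upstream. The last of these lay in SETD3, a histidine methyltransferase gene that held 9 of the 35 distal regions (fold 2.49 to 8.36). SETD3 was the nearest protein-coding 5′ end for 12 of the 35, and BCL11B for 23.

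The 5 strongest distal regions of RUNX1T1 lay in the flanks, outside the gene body. The strongest, 11.7, lay 240519 bp downstream at 91854716 to 91855260, within an unnamed long non-coding RNA gene that held 7 of the 45 regions. The next lay upstream, with folds of 11.5 at 171139 bp, 11.3 at 151658 bp, 10.8 at 185225 bp and 10.2 at 36339 bp. The region of 11.3 was the one among 201 with the OCT4-SOX2 composite string, and it also held the TCF/LEF string. All 45 distal regions had RUNX1T1 as the nearest protein-coding 5′ end.

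Of the 11 distal regions of ZEB1, 3 had a fold over 10. The region of 15.9 whose sequence holds the overlapping ZIC string and E2 box lay 149226 bp inside the gene, in intron 2, at 31467781 to 31468763 on chromosome 10. The next were 12.7 at 358396 bp and 10.9 at 409771 bp downstream of the start, beyond the gene, 7.46 at 172079 bp in intron 2, and 7.22 at 185089 bp upstream. For 6 of the 11 the nearest protein-coding 5′ end was that of ZEB1, and for the other 5 it was ARHGAP12 or ZNF438. The 5′ end of the antisense gene ZEB1-AS1 lay 123 bp from the summit of the region of 4.17 beside the ZEB1 start region. It lay 949 bp from the strongest summit of the start region itself, of fold 7.77. An upstream long non-coding RNA, LINC02664, had a region of 10.4 at its 5′ end.

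ZEB2 held the strongest region of all 201. This region of 16.5, with the octamer, lay 129152 bp upstream at 144648967 to 144649545 on chromosome 2. It was followed by 15.2 at 48682 bp inside the gene in intron 2 (144471216 to 144471729), 14.0 at 251964 bp downstream in GTDC1, 13.9 at 88506 bp in intron 2, and 13.2 at 47900 bp upstream in LINC01412. GTDC1, a glycosyltransferase-like gene, was the one protein-coding gene with its own outermost 5′ end in any of the 5 windows: it starts 31.8 kb from ZEB2, with a fold of 12.4 and a summit 43 bp upstream. GTDC1 held 9 of the 53 distal regions and was the nearest protein-coding 5′ end for 18, and ZEB2 was nearest for 35. ZEB2-AS1 and LINC01412, which start beside ZEB2, had no region at their 5′ ends, whereas LINC02993, 3.59 kb away, had a fold of 6.91.

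Pluripotency factor strings were about as frequent at the summits of the 5 genes as elsewhere. At least 1 of the OCT4-SOX2 composite (TTGTNATGC), the octamer and the SOX string (ACAATG) lay within 50 bp of 23 of the 201 summits (11.4%, 7.39% to 16.7%), against 10.5% of all distal summits. These were 8 at RUNX1T1, 8 at ZEB2, 5 at BCL11A, 1 at BCL11B and 1 at ZEB1. Matches were counted on both strands, and the strings can overlap: the composite ends in the first 4 bases of the octamer and can hold 4 bases of the SOX string on the opposite strand. Singly, the composite was found at 1 summit (0.498%, against 1.03% of all distal summits), the octamer at 7 (3.48%, against 2.50%) and the SOX string at 15 (7.46%, against 7.51%). The ZIC string was at 20 (9.95%, against 9.43%) and the TEAD string (ACATTCC) at 8 (3.98%, against 4.23%).

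Strings that relate to the 5 proteins' own binding had lower shares than the list, within their intervals. The E2 box, the core of ZEB1 and ZEB2 sites, was at 21 summits (10.4%, 6.58% to 15.5%), against 12.8% of all distal summits, with 8 at BCL11B, 4 at RUNX1T1, 4 at ZEB2, 3 at BCL11A and 2 at ZEB1. The string TGACCA, the core of the known BCL11A site, was at 7 (3.48%, against 5.19%), and the RUNX string, for the factors that RUNX1T1 fuses with in leukaemia, at 14 (6.97%, against 7.75%).

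The other strings followed the whole list within their intervals. The CTCF string (CCANNAGGG) was at 9 summits (4.48%, against 5.58%), the AP-1 string (TGANTCA) at 8 (3.98%, against 4.83%), the GC box (GGGCGG) at 11 (5.47%, against 6.06%) and the GATA string (AGATAA) at 7 (3.48%, against 4.13%). The TFAP2 string was at 6 (2.99%, against 4.06%), the OTX string (GGATTA) at 6 (2.99%, against 3.92%), the homeobox string (TAATTA) at 3 (1.49%, against 2.04%) and the NFY string (CCAATCA) at 2 (0.995%, against 1.68%). The FOX string (TGTTTAC) was at 1 (0.498%, against 1.89%) and the ETS string (CCGGAAG) at 1 (0.498%, against 0.623%). The NRF1 string (GCGCATGCG) and the YY1 string (AAGATGGC) were at 0 of 201 (interval 0% to 1.82%, or up to 1.49% with the limit set at 3 counts), against 0.0610% and 0.517%. The X box was at 7 (3.48%, 1.41% to 7.04%, against 1.90%), 4 of them at BCL11A, and the TCF/LEF string (CTTTGAT) at 6 (2.99%, 1.10% to 6.38%, against 1.39%). For all 22 strings the interval of the 5 genes held the share of the other distal summits.

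Several strings had higher shares at the summits than in windows of the same size 500 bp away that touched no region. The ZIC string was at 9.95% of the 201 summits, against 1.84% of 326 such flanking windows around the same genes. In the other distal regions it was at 9.43% of summits and 1.86% of flanking windows. The octamer was at 3.48%, against 0.920% (7 summits and 3 flanking windows), and elsewhere at 2.50% and 0.818%. The GATA string was rarer at the summits, with 3.48%, against 8.59% in the flanking windows, and elsewhere 4.13% and 7.97%. So was the homeobox string, with 1.49% and 4.60%, and elsewhere 2.04% and 4.71%. The ZIC, octamer, GATA and homeobox contrasts thus had the same direction in the rest of the list. For the RUNX, TGACCA, TCF/LEF, FOX, NFY and YY1 strings the direction differed from the rest. The RUNX string was at 6.97% of summits and 8.28% of flanking windows, and elsewhere at 7.75% and 6.31%. TGACCA was at 3.48% and 4.60%, and elsewhere at 5.19% and 4.42%. No string of the 22 was found at 91 of the 201 summits (45.3%), against 39.6% of the other distal summits. A match is a run of letters and not a bound site, and the lack of one says only that those letters are not in the window.

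**Figure D4:**
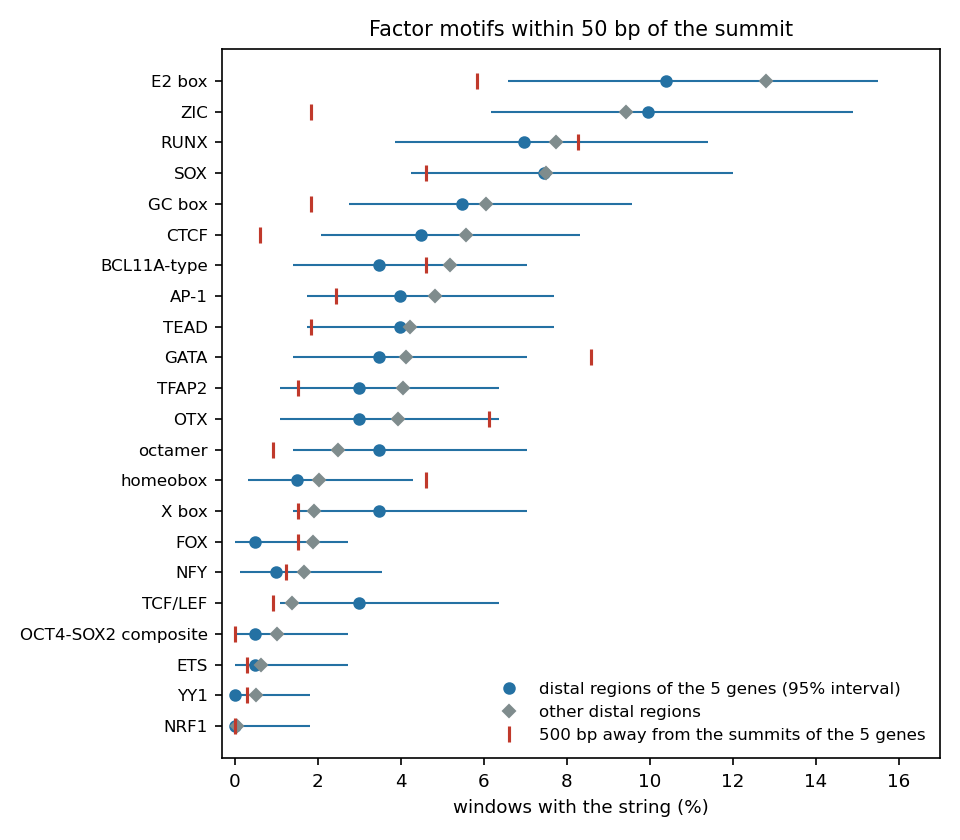
Share of distal summits in percent (horizontal axis) with each of 22 consensus strings within 50 bp, for the 5 genes (with 95% exact binomial intervals), the other distal regions and the windows 500 bp from the 5 genes' summits. The 5 genes' intervals hold the share of the other distal regions for all 22 strings.

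Genes that the 5 repressors work with were read beside the 71.5% of all protein-coding genes with a region at the outermost 5′ end. At the canonical start 15148 of the 20007 protein-coding genes had one. The share of all genes with a region at some annotated start was not computed, so counts by that rule have no matching share. Of 24 corepressor partners, among them NuRD, SIN3, CtBP, NCoR and CoREST subunits, 21 had a region at the outermost 5′ end, with a median fold of 7.64. The highest were MBD2 (14.4), GATAD2A (12.0) and RBBP4 (11.6), all NuRD subunits. The 3 without one, CTBP1, HDAC2 and TBL1XR1, had folds of 5.27, 8.25 and 7.46 at the canonical start. Among 9 genes of the ETO family, the RUNX factors and the E proteins, 5 had a region at the outermost 5′ end, led by CBFA2T2 (13.2), TCF12 (11.7) and RUNX2 (10.2), and all 9 had one at some annotated start. CBFA2T3, RUNX1 and RUNX3 had none at the outermost 5′ end.

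Genes of the epithelial and mesenchymal states, on which the ZEB proteins act in other cells, had shares on either side of that 71.5%. Of 9 further factors of epithelial to mesenchymal transition, 9 had a region, with SNAI2 (11.3), SNAI3 (10.1) and TCF3 (8.53) highest and a median of 6.51. Of 16 epithelial genes, 13 had a region at the outermost 5′ end, with a median of 5.51. All 16 had one at the canonical start, against 15148 of the 20007 protein-coding genes. EPCAM (17.4), the adhesion molecule of epithelial cells, CDH1 (12.5), which encodes E-cadherin and is repressed by ZEB proteins in other cells, and ESRP1 (10.00), a splicing factor of epithelial cells, were highest, and CLDN4, CLDN7 and PKP3 had none at the outermost end. Of 10 mesenchymal genes, 6 had a region, with SPARC (12.6), FN1 (12.5), COL1A2 (6.37) and VIM (6.37) highest, and CDH11, COL1A1, COL3A1 and LOX without. At the canonical start 7 of the 10 had a region, CDH11 with a fold of 3.89, and at some annotated start 9 had one, COL1A1 with 7.70 and LOX with 9.05. Of 13 globin and erythroid genes, whose fetal members BCL11A silences in red cells, 2 had a region, NFE2 (8.14) and TAL1 (2.96), and GATA1, HBA1 and HBA2 had none, although near-identical globin copies may share reads. The median fold over all protein-coding genes was 7.18, and these lists were not tested against it.

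The miR-200 microRNAs that target ZEB1 and ZEB2 come from 2 clusters, and their sequences fall into 2 groups by the seed, bases 2 to 8, in capitals below. Mature sequences are from RefSeq on GRCh38.p14, matched by name for 5 of 5.
hsa-miR-200b-3p: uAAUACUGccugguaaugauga
hsa-miR-200c-3p: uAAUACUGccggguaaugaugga
hsa-miR-429: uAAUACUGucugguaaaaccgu
hsa-miR-200a-3p: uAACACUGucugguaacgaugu
hsa-miR-141-3p: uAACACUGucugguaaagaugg
The first 3 share the seed AAUACUG and the other two the seed AACACUG, and each cluster holds both seeds. At the cluster on chromosome 12 a region at 6962541 to 6963538, with a fold of 5.00, had its summit 510 bp from the MIR200C hairpin and 908 bp from that of MIR141. At the cluster on chromosome 1 the nearest region, at 1164645 to 1165028, had a fold of 2.61 and lay 2320 bp from the MIR200B hairpin, 3132 bp from the mature miR-200a-3p and 4221 bp from the MIR429 hairpin. Both clusters thus had a region within 5 kb, and the nearest one was closer and of higher fold on chromosome 12. Other regions also lay within 5 kb, 3 in all at MIR200C and 2 at MIR200B. How many other genes have a region within 5 kb was not computed, so this is a description only.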

How the data were processed

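ATAC-seq was run on 2 samples of 1 group, with 1 deposited peak list for both. Per the submitters' processing notes the build was GRCh38. Not given in the sources used here are the aligner, the caller, any shift of the reads, the depth, and whether peaks were called on pooled samples. The deposited fold (a ratio over background), −log10 p and score are the authors' values per summit, read from the narrowPeak layout, and can rank or filter regions of this list but not compare it with another. The deposited score served no comparison. Nothing in the labels shows whether the samples are separate cultures.

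Lines with identical coordinates were merged into 1 region, given the summit of highest fold, and placed on GENCODE release 44 and the hg38 sequence. A promoter fold was that of the strongest such summit within 1000 bp of a start, and 0 where there was none, although part of a region may still reach the start. Strings were sought on both strands in the 101 bp around summits. Intervals have a confidence level of 95%. No test was run, since the list holds no replicates. Python 3.11.15, numpy 2.4.6, pandas 2.3.3, scipy 1.17.1, pysam 0.24.0 and matplotlib 3.10.9 were used, and the counting steps were tested on simulated data. The genes, lists, strings and thresholds were chosen with earlier results of these data known. Named by rule were the 5 genes, their 5 strongest distal regions, the region nearest to each canonical start, protein-coding genes starting in the windows, and of each list the 3 with the highest promoter fold and up to 3 without a region. Non-coding neighbours, LOX, the erythroid positions of BCL11A and the miR-200 genes were added outside that rule. So were the weaker ZEB2 start regions and the stronger regions beside the BCL11A and BCL11B starts. All of these were added after the values were seen. Of the members, 0 shared a run of 25 bases with mitochondrial DNA.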

Additional observations from a re-analysis of the deposited data

How the results depend on the processing

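No paired analysis was possible because both samples share 1 peak list with no values per sample, and for the same reason no replicate could be left out. Of 130 values recomputed under the other settings, 94 stayed within their interval or within 1.5 times the count, and 36 moved. These values are counts, folds, widths and shares, which cannot change sign. Windows of 500 kb gave 370 regions in place of 221, and regions above the median −log10 p of 27.7 gave 103, both by construction of a wider or narrower choice. Counting every summit lowered the median fold of the 5 genes' distal regions to 4.22, against 4.55 in other distal regions. Above the median −log10 p that fold was 7.78, against 8.09, the median width 513 bp, against 533 bp, and the share with more than 1 summit 36.0%, against 36.2%. Windows of 100 kb raised the share of distal regions in gene bodies to 53.2% from 36.8%, since less flank was counted. With 100 bp to either side of the summit, the share with a pluripotency string was 17.4%, against 17.9% in other distal regions, and the median G+C content 48.3%; a wider window holds more sequence. Promoter folds depended on which start was used: ZEB1 had 2.33 at the outermost end and 7.77 at the canonical start, ZEB2 0 at both and 13.9 at some start, and BCL11A 15.0 at some start and no summit within 500 bp of the outermost end. Leaving out regions near any annotated start kept 176 of the 201 distal regions. The list holds only regions that passed the authors' threshold, and weaker accessibility below it is not described.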
